A study of Rattus norvegicus with 17 samples.

Results

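The hippocampal transcriptome of adolescent rats whose dams consumed ethanol was compared with that of rats from chow-fed dams, and every expressed gene was ranked by its own test so that small shifts shared by the genes of a pathway or cell type could be described beside the few single genes that passed a threshold. The ethanol group (ET) comprised Long-Evans rats whose dams drank a liquid diet with 6.7% ethanol, which supplied 36% of the calories, from gestational day 0 to 20. Dams of the ad libitum group (AD) had free access to laboratory chow. Hippocampi were collected at 36 to 38 days of age, and libraries were made from polyadenylated RNA with a strand-specific kit. The comparison holds 9 of the 17 libraries of the series, 4 ET (replicates 1, 3, 4 and 5) and 5 AD (replicates 1, 2, 3, 5 and 6). By label ET held 2 males and 2 females and AD 3 males and 2 females, and the sexes were pooled. ET replicate 2 and AD replicate 4 were left out because of their content of choroid plexus, the tissue that secretes cerebrospinal fluid: its transport protein transthyretin (Ttr) was at 6667 and 8336 CPM there (counts scaled to a common library total). Of 34322 genes in the table, 15749 had enough counts to be tested. Each diet group came from 1 litter, so an effect of the diet and a difference between litters cannot be told apart, and the p-values measure only the spread between littermates.

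Ethanol crosses the placenta and is oxidized by alcohol dehydrogenase and catalase to acetaldehyde, which aldehyde dehydrogenases oxidize further, while aldo-keto and carbonyl reductases reduce other aldehydes and ketones. The hippocampus, a structure for learning and memory that is sensitive to prenatal ethanol, consists of the pyramidal fields CA1 to CA3 and the dentate gyrus, with interneurons, glia and vessels among them. It borders the choroid plexus, the ependyma and the thalamus, which a dissection can include, and in bulk tissue a smaller number of cells of a type and less RNA per cell cannot be told apart.

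Several libraries stood apart in ways that the diet groups do not share. Libraries held 11392019 to 17498392 assigned fragments, 13018502 to 15156341 in ET and 11392019 to 17498392 in AD. In AD replicate 1, labelled male, no fragment was assigned to the Y-linked genes, and in AD replicate 2, labelled female, 3352 were, so the sex-linked genes of these 2 libraries go against their labels. AD replicate 3 is the only right hippocampus of the 9. In AD replicate 6 the summed level of 9 pineal gland markers was 1109 CPM after TMM scaling, against 1.05 to 9.31 in the other 8 libraries, and Tph1, the pineal enzyme of serotonin synthesis, stood at 968 CPM. ET replicate 1 held the most choroid plexus RNA of the 9 libraries, with Ttr at 1024 CPM against 2.71 to 141 elsewhere, and ET replicate 3 held the most RNA of thalamic markers, with Prkcd, a kinase of thalamic relay neurons, at 53.6 CPM against 13.7 to 20.4. In ET replicate 1 Prox1, the transcription factor of dentate granule cells, was at 8.19 CPM against 18.3 to 50.6 in the other 8 libraries.

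**Figure D1:**
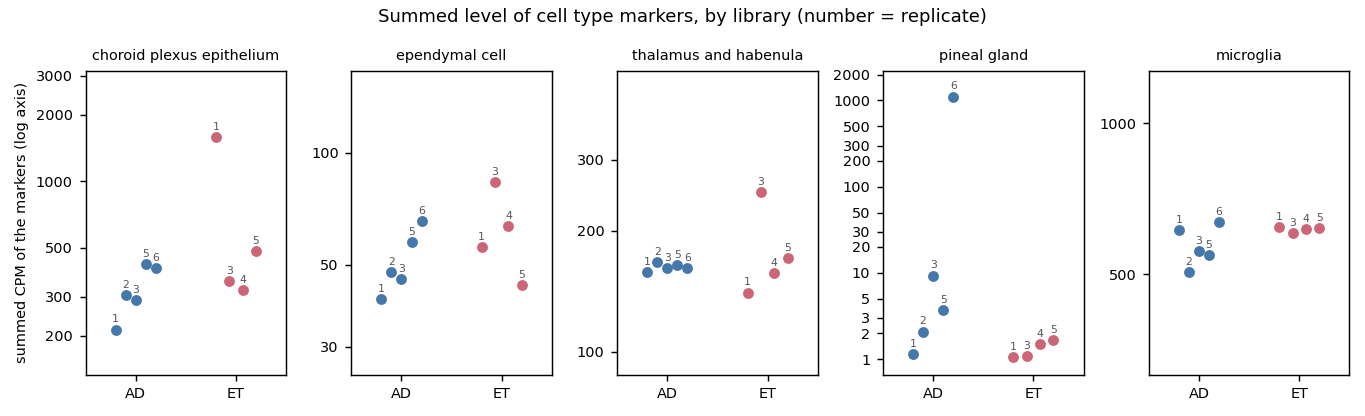
Summed CPM of cell type markers in each library, on log axes, for AD (blue) and ET (red), with the replicate number above each point. ET replicate 1 stands above the others for choroid plexus, ET replicate 3 for ependyma and thalamus, and AD replicate 6 for pineal gland, whereas the microglial sums lie between 504 and 636 CPM in all 9.

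Most of the transcriptome differed little between the groups. The median log2 fold change of ET over AD was 0.00 over all 15749 genes, 51.4% of them lay above 0, and 97.99% differed by less than 0.5 on the log2 scale, while 56 genes differed by more than 1. A gene was called where its adjusted p was below 0.01 and its log2 fold change exceeded 1.5 in size (edgeR's quasi-likelihood test, Benjamini-Hochberg). By this threshold ET was lower for 2 genes (0.0127% of those tested) and higher for 0 (0.0%). At an unadjusted p below 0.05 there were 251 genes higher in ET (1.59%) and 181 lower (1.15%), together 432 (2.74%). Together they are a smaller share than the 0.05 that this p passes on average where no gene differs. The 4 ET values lay all above the 5 AD values for 101 genes (0.641%) and all below for 75 (0.476%). These shares are the background for the counts below. They moved with the libraries included: there were 413 higher (2.6%) and 371 lower genes (2.34%) without ET replicate 1, 159 and 127 without AD replicate 1, and, without both AD replicates 1 and 2, 90 higher (0.57%) and 114 lower genes (0.722%). Other tools gave the same count past the threshold, with 2 lower and 0 higher by both DESeq2 and limma, and at an unadjusted p below 0.05 DESeq2 gave 181 higher and 137 lower genes.

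The 2 genes that fell in ET were Akr1b10 and Mx2. Akr1b10 encodes an aldo-keto reductase that reduces aldehydes and retinal with NADPH. Its level was 9.46, 6.80, 8.87 and 8.53 CPM in ET replicates 1, 3, 4 and 5, and 30.7, 32.6, 29.3, 26.4 and 28.2 CPM in AD replicates 1, 2, 3, 5 and 6. Every ET library lay below every AD library, with means of 8.41 ± 1.15 (SD, n = 4) and 29.5 ± 2.36 CPM (SD, n = 5). The fall was 1.81 on the log2 scale (SE 0.10), or 3.51-fold, with an adjusted p of 7.9e-05 by edgeR's quasi-likelihood test. In 5 of the 6 pair-fed libraries of the same series (the one with Ttr at 7684 CPM was left out), whose dams received a liquid diet of matched calories without ethanol, Akr1b10 lay between 26.7 and 51.9 CPM. The 250 bases upstream of its annotated start (RefSeq, GRCr8, chr4:64005382-64005631, plus strand), shown because this gene carries the clearest difference, are given 5′ to 3′ and hold none of the 3 motifs searched on both strands, the interferon-stimulated response element (GAAA, any 2 bases, GAAA), the antioxidant response element (TGAC, any 3 bases, GC) and the heat shock element (GAA, TTC and GAA with any 2 bases between them), which occur in 3.41%, 10.1% and 0.663% of 33469 windows of this length.

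Akr1b10: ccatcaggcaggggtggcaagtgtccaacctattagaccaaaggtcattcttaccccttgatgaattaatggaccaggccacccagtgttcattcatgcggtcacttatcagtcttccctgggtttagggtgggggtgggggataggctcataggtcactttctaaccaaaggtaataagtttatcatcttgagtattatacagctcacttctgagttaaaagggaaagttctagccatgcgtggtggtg

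Mx2, an interferon-induced dynamin-like GTPase that restricts viruses, was at 4.81, 3.26, 5.22 and 4.48 CPM in the ET libraries and at 29.1, 21.8, 26.6, 21.9 and 31.8 CPM in the AD libraries. The groups did not overlap, and the highest ET value lay well below the lowest AD value. Mx2 fell by 2.56 on the log2 scale (SE 0.16), with an adjusted p of 0.00013 by edgeR's quasi-likelihood test, and lay between 23.9 and 44.3 CPM in the pair-fed libraries.

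With all 9 libraries no chromosomal neighbour of either gene was below an unadjusted p of 0.05. Akr1b1, the aldose reductase next to Akr1b10, had a log2 fold change of -0.12 (SE 0.08), and Bpgm, the bisphosphoglycerate mutase on its other side, one of -0.08 (SE 0.09). Of 9 tested aldo-keto reductases, Akr1b10 alone was below an unadjusted p of 0.05, and the family's median was -0.03. Leaving out ET replicate 1 gave a median of -0.10, with 1 of 9 above 0 and Akr1b1 also lower at that p (-0.17), and leaving out ET replicate 3 gave 0.03. The remaining 8 of the 17 matched members had too few counts to be tested, Akr1b7 and Akr1b8 among them. Mx1, the paralog that adjoins Mx2, lay at 1.37 to 2.22 CPM in ET and 0.579 to 2.69 CPM in AD, with a log2 fold change of 0.09 (SE 0.39). Ripk4, a kinase gene on the other side of Mx2, varied within each group, at 0.286 to 0.868 CPM in ET and 0.174 to 2.24 CPM in AD (-0.98, SE 0.60).

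**Figure D2:**
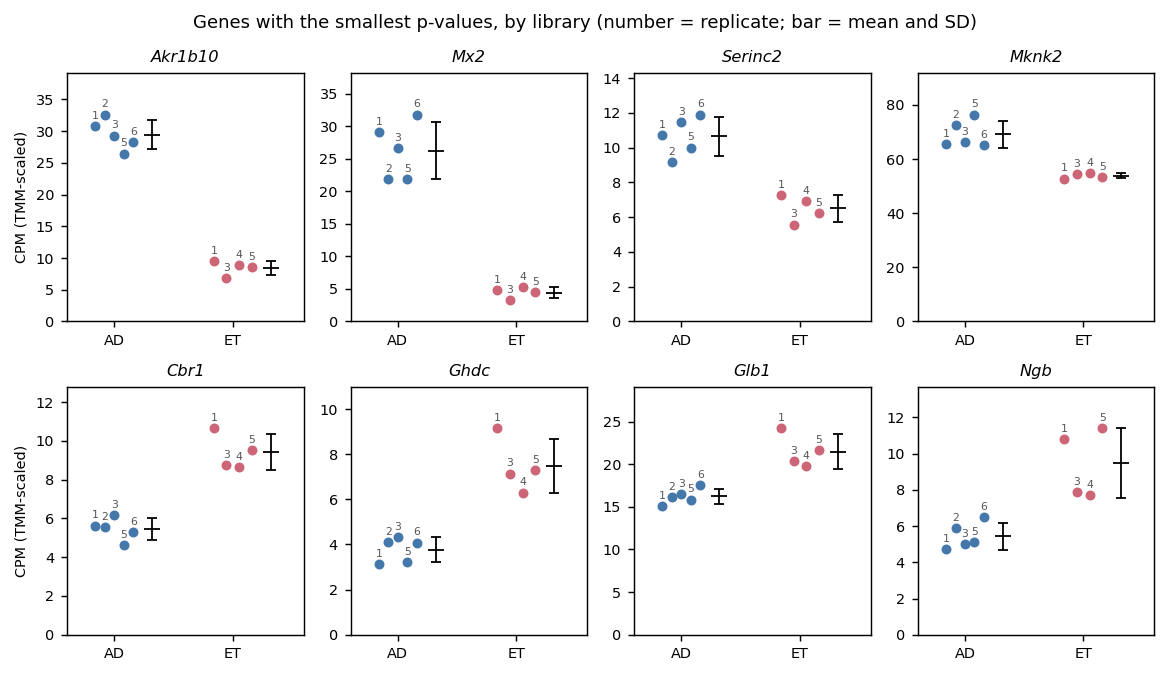
CPM of 8 of the genes with the smallest p-values in each library of AD (blue) and ET (red), with the replicate number above each point and the mean and SD beside it. For each of the 8 genes the ET libraries lie entirely on one side of the AD libraries, and for Akr1b10 and Mx2 the gap is several times the spread within either group.

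Among the genes with the next smallest p-values, none passed the threshold, and those higher in ET included 2 further reductases. Cbr1, the carbonyl reductase that reduces carbonyl compounds and quinones, was at 8.65 to 10.7 CPM in ET and 4.63 to 6.18 CPM in AD, a log2 fold change of 0.78 (SE 0.10) with an adjusted p of 0.075 by edgeR's test; over the alternative fits the adjusted p ran from 0.00016 to 1.00. Its neighbours Cbr3 and Setd4 had log2 fold changes of -0.14 and -0.07. Nqo2, a quinone reductase, lay at 4.51 to 6.15 CPM in ET and 3.18 to 4.21 CPM in AD (log2 fold change 0.61, SE 0.12). Both groups lay above the pair-fed libraries for Nqo2, which held 1.37 to 2.21 CPM, whereas for Cbr1 the pair-fed libraries, at 7.05 to 9.5 CPM, lay above every AD library.

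Ghdc, a gene of little known function, showed a log2 fold change of 0.98 (SE 0.14), with 6.29 to 9.16 CPM in ET against 3.14 to 4.32 CPM in AD. Trim30, a tripartite-motif protein of innate immune signalling, had one of 1.15 (SE 0.21), at 2.33 to 4.34 CPM in ET and 1.40 to 2.17 CPM in AD. Ngb, neuroglobin, the oxygen-binding globin of neurons, had one of 0.79 (SE 0.15), at 7.72 to 11.4 CPM in ET and 4.71 to 6.51 CPM in AD. In each of these 3 genes the ET and AD libraries did not overlap. Smaller shifts of the same kind, also without overlap, were those of the lysosomal galactosidase Glb1 (0.41, SE 0.08), the F-box gene Fbxl2 (0.25, SE 0.05), the glycogen phosphorylase Pygl (0.55, SE 0.12) and Tex52 (0.77, SE 0.18). None of these genes had an adjusted p below 0.1 by edgeR's test. In the pair-fed libraries Ghdc lay at 6.32 to 7.70 CPM, above every AD library. Pair-fed values overlapped both groups for Trim30 (2.04 to 4.12 CPM), Ngb (4.8 to 7.9 CPM) and Pygl (2.55 to 3.40 CPM). Glb1 (12.5 to 18.1 CPM), Fbxl2 (27.3 to 33.2 CPM) and Tex52 (0.791 to 0.974 CPM) lay below every ET library there.

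On the lower side, Serinc2, a member of a family of membrane carriers of serine, lay at 5.57 to 7.29 CPM in ET and 9.15 to 11.9 CPM in AD, a log2 fold change of -0.71 (SE 0.11) with an adjusted p of 0.15 by edgeR's test. Mknk2, the kinase that phosphorylates the translation factor eIF4E, was at 52.8 to 54.9 CPM in ET and 65.2 to 76.4 CPM in AD (log2 fold change -0.36, SE 0.06). Both genes were without overlap between the groups. Cyb561a3, a lysosomal cytochrome (-0.44, SE 0.08), Podn, a matrix proteoglycan (-0.40, SE 0.07), Diras1, a small GTPase (-0.20, SE 0.05), and Acaa2, a thiolase of mitochondrial fatty acid oxidation (-0.57, SE 0.15), also had ET values that lay all below AD. For Zfp61 and Zfp180, a pair of zinc finger genes with log2 fold changes of -0.33 and -0.25, the right hippocampus of AD replicate 3 lay within the ET range. In the pair-fed libraries Mknk2 (55.2 to 61.1 CPM), Diras1 (62.5 to 72.1 CPM) and Zfp180 (110.3 to 129.5 CPM) lay below every AD library. Serinc2 (8.78 to 12.5 CPM) lay above every ET library there. Pair-fed values overlapped both groups for Cyb561a3 (8.0 to 13.25 CPM), Podn (8.88 to 12.4 CPM), Acaa2 (14.1 to 19.5 CPM) and Zfp61 (12.1 to 15.3 CPM).

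Some of the genes at an unadjusted p below 0.05 lay beside each other in the gene order of GRCr8. The 226 placed genes higher in ET had 451 flanking positions among the tested genes, of which 26 (5.76%) held another gene higher in ET, beside 1.59% of all genes. These 26 positions are 13 pairs, each counted once from either side, made of 24 genes. The 167 placed genes lower in ET had 334 such positions, of which 12 (3.59%) held another lower gene, beside 1.15%, and these make up 6 pairs of 10 genes. The 2 genes of a pair overlapped each other in 2 of the 13 higher and 1 of the 6 lower pairs, and the counting let a read count for several features. The genes named in the next paragraph were chosen after their values were seen.

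In one run of adjacent genes, Rpl30, Erich5, Rida and Pop1, all 4 were at an unadjusted p below 0.05 and higher in ET. The row for Rpl30, a ribosomal protein gene, lay at 3.83, 7.07, 7.08 and 6.00 CPM in ET replicates 1, 3, 4 and 5 and at 2.52 to 3.22 CPM in AD, a log2 fold change of 1.02 (SE 0.18). Such low values are unusual for a ribosomal protein gene, but the 74 tested ones had a median log2 CPM of only 3.5 in these libraries. Because ribosomal proteins have near-identical copies in the genome, what this row and others of the family count is uncertain. Erich5, which encodes a glutamate-rich protein, lay at 5.56, 12.4, 11.3 and 7.74 CPM in ET and 4.60 to 7.77 CPM in AD (0.64, SE 0.23). In both genes ET replicate 1 was the lowest ET library, and without it the log2 fold changes were 1.18 and 0.82. Rida, a deaminase of reactive imines (0.18, SE 0.08), and Pop1, a subunit of RNase P (0.30, SE 0.11), had groups that overlapped. Matn2, on the far side of Rpl30, had a log2 fold change of -0.08 (SE 0.15).

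Other neighbours included S100a3 and S100a4, which encode calcium-binding proteins and were higher in ET without overlap, by 0.58 (SE 0.17) and 0.57 (SE 0.14) on the log2 scale. P2rx4 and P2rx7, which encode ATP-gated channels of microglia and other cells, had log2 fold changes of 0.22 (SE 0.09) and 0.30 (SE 0.10), and the groups overlapped in both. Zfp61 and its neighbour Zfp94 were lower in ET by -0.33 and -0.35, and AD replicate 3 lay within the ET range in both. LOC103691053, an unnamed gene on the other side of Zfp94, lay at 0.136 to 0.358 CPM in ET and 0.522 to 1.56 CPM in AD. Its averaged counts were 2.33 to 4.67 in ET and 6.67 to 18 in AD. The AD libraries alone, where it is high, brought it past the count filter, so its test is not read. Its pair with Zfp94 is among the lower pairs counted above.

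**Figure D3:**
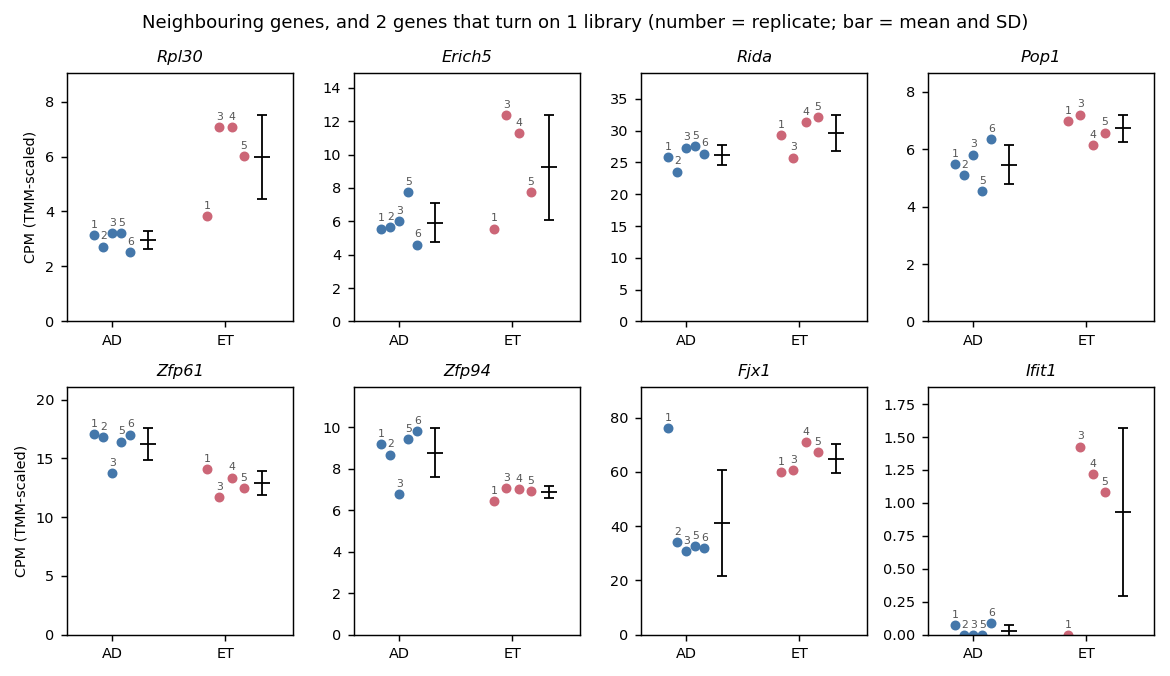
CPM in each library for 4 adjacent genes (Rpl30, Erich5, Rida and Pop1), for the neighbours Zfp61 and Zfp94, and for Fjx1 and Ifit1, in AD (blue) and ET (red), with the replicate number above each point and the mean and SD beside it. Fjx1 separates AD replicate 1 from the other 4 AD libraries, and Ifit1 separates ET replicate 1 from the other 3 ET libraries.

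In Fjx1 and Ifit1, also named after their values were seen, 1 library stood apart from its group. Fjx1, a secreted inhibitor of dendrite growth, was at 60.01, 60.7, 71.1 and 67.3 CPM in ET and at 76.2, 34.2, 30.9, 32.7 and 31.9 CPM in AD. AD replicate 1 was the highest of the 9 libraries, while the other 4 AD libraries lay near 0.5 of the ET level, and the pair-fed libraries lay at 62.1 to 73.0 CPM. Without the 2 AD libraries whose sex-linked genes go against the label, its log2 fold change was 1.03 with an adjusted p of 0.0073 by edgeR's test, a fit that leaves out the library that stood apart, and with all 9 libraries it was 0.65 (SE 0.25) with an adjusted p of 1.00. Ifit1, an interferon-induced protein that binds viral RNA, was too low to be tested over the 9 libraries. Its averaged counts were 0.333, 21.3, 17 and 15 in ET replicates 1, 3, 4 and 5, and at most 0.667 in any AD library, and the pair-fed libraries reached at most 0.0728 CPM. The other 3 ET libraries alone brought it past the count filter when ET replicate 1 was left out, so its test there is not read.

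Pathways were described by lists of genes, each through the number of members tested, the median of their log2 fold changes and a score per library, the median over the tested members of log2 CPM relative to the mean of the 9 libraries. Of 54 lists with 6 or more tested members, 22 had a median above 0 and 32 below, 37 lay within 0.05 of 0, and 9 lay beyond 0.1. In 0 of the 54 did the scores of the ET libraries separate from those of the AD libraries. In 20 lists the median kept its sign when each of the 9 libraries was left out in turn, 7 above 0 and 13 below. In 28 lists no member was below an unadjusted p of 0.05, in 16 there was 1, and in 10 there were 2 or more.

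**Figure D4:**
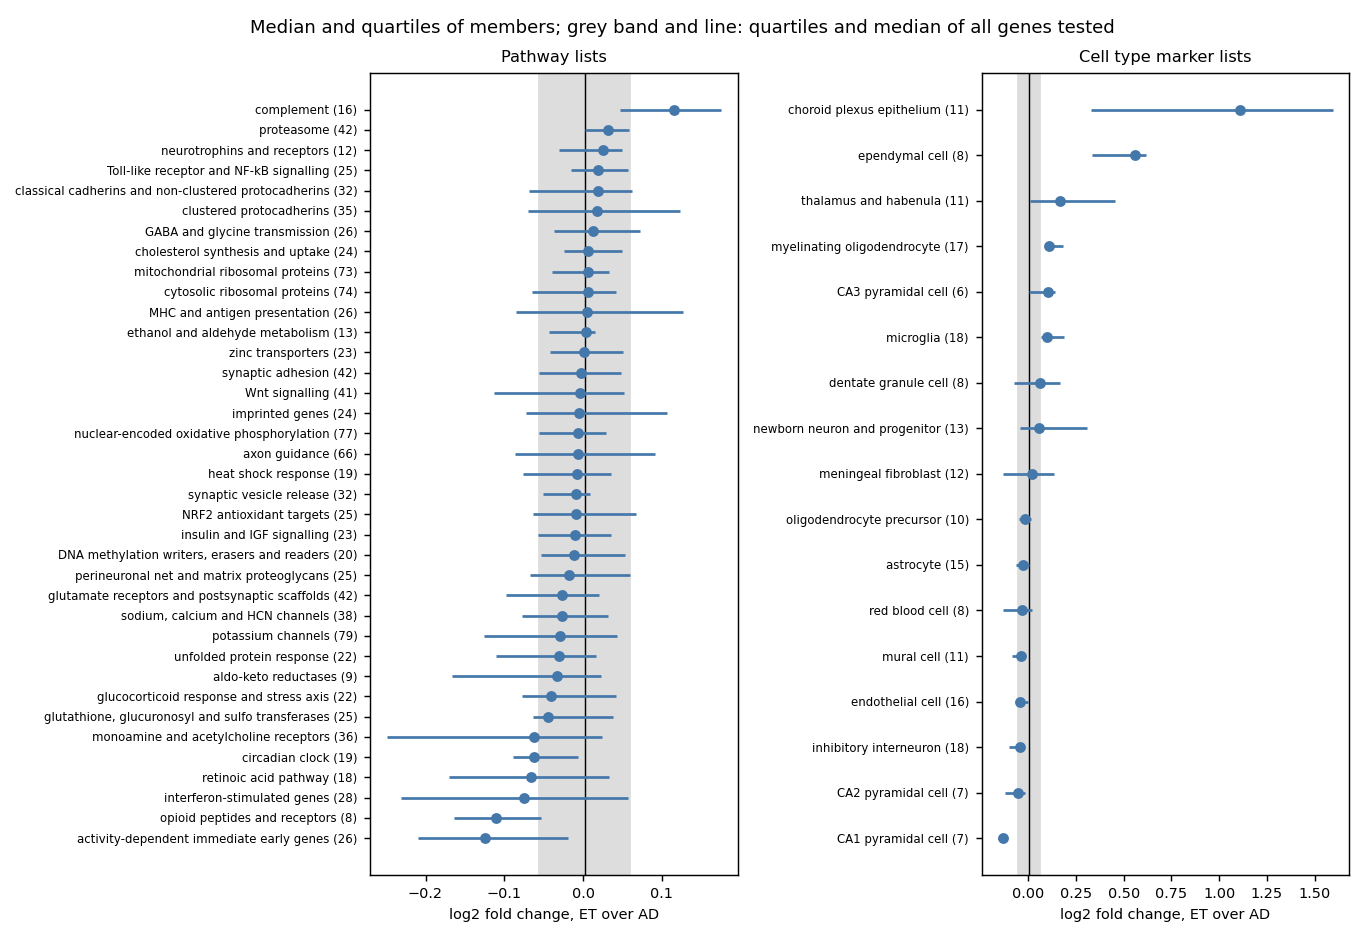
Median log2 fold change (points) and quartiles (lines) of the tested members of each pathway list, left, and cell type list, right, with the number tested in brackets and the quartiles and median of all genes as a grey band and black line. The scale of the right panel is wider because the choroid plexus median lies at 1.11; among pathways the medians run from -0.12 for immediate early genes to 0.12 for complement.

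Most interferon-stimulated genes differed little between the groups. Of 32 matched members 28 were tested, 0 were higher and 1, Mx2, was lower at an unadjusted p below 0.05, and 9 of 28 lay above 0, beside 51.4% of all genes. Their median was -0.08 with all libraries and ran from -0.15 (without AD replicate 2) to -0.01 (without AD replicate 6) when libraries were left out in turn. Without AD replicates 1 and 2 it was -0.14, with 2 lower genes, Mx2 and Ifi27. Irf7, the regulator of interferon genes, lay at 2.33 to 3.29 CPM in ET and at 2.09 to 8.16 CPM in AD, a log2 fold change of -0.52. Ifi27, a mitochondrial interferon-induced protein, lay at 26.4 to 38.3 CPM in ET and 29.5 to 62.5 CPM in AD (-0.42). In both, AD replicate 6 was the highest of the 9 libraries. Rsad2, the antiviral enzyme viperin, at 3.23 to 4.72 CPM in ET and 2.55 to 4.69 CPM in AD (0.16), and Gbp2, a guanylate-binding GTPase, at 5.11 to 6.01 CPM in ET and 4.0 to 6.51 CPM in AD (0.11), lay on the other side of 0. The score of the list ran from -0.12 to 0.08 in ET and from -0.26 to 0.34 in AD.

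The response element to which interferon-activated factors bind, read as GAAA, any 2 bases and GAAA on either strand, lay in the 250 bases upstream of 13 of 22 interferon-stimulated genes with a RefSeq entry (59.1%), beside 3.41% of all windows. The 12 tested genes with the motif had a median log2 fold change of -0.14, and the 8 without had one of 0.03. Mx2 has no entry among these windows. The windows of Irf7 (chr1:205800024-205800273, minus strand), Ifi27 (chr6:128355062-128355311, plus strand), Rsad2 (chr6:48788121-48788370, minus strand) and Gbp2 (chr2:234005477-234005726, plus strand; all RefSeq, GRCr8) are shown because these genes carry the element and yet lie on both sides of 0. They are written 5′ to 3′ in the direction of transcription, and capitals mark the element, which reads TTTC first where it lies on the opposite strand.
Irf7: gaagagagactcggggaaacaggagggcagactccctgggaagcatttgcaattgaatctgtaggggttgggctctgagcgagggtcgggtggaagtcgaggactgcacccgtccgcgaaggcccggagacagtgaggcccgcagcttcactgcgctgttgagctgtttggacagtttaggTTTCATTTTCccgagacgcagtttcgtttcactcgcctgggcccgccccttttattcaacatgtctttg
Ifi27: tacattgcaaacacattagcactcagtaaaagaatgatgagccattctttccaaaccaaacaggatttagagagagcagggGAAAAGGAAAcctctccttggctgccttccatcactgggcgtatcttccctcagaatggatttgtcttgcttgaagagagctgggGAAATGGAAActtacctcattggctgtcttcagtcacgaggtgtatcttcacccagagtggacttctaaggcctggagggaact
Rsad2: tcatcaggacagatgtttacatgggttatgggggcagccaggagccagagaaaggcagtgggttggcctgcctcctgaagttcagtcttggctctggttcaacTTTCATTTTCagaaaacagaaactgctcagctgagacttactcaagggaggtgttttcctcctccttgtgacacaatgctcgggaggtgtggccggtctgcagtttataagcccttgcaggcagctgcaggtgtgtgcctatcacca
Gbp2: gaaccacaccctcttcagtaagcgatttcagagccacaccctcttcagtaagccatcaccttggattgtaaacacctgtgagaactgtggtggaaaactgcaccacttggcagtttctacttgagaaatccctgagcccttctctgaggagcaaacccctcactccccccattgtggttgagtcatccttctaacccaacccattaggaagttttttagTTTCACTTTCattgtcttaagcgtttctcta

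Other immune lists showed small shifts. Of 16 tested complement genes 12 lay above 0 and 0 passed an unadjusted p of 0.05, with a median of 0.12; their scores ran from -0.00 to 0.13 in ET and from -0.24 to 0.09 in AD. This median was 0.05 without AD replicate 2 and 0.03 without AD replicates 1 and 2, and C1s was higher without ET replicate 1. C1s, a protease of the classical pathway, and C3, its central component, both had log2 fold changes of 0.23. In the Toll-like receptor and NF-kB list 1 of 25 tested genes was higher, Tlr2, a receptor of bacterial lipoproteins, at 5.17 to 6.00 CPM in ET and 3.30 to 5.14 CPM in AD without overlap (0.49, SE 0.13), and the median was 0.02 with 18 of 25 above 0. That median was 0.05 without ET replicate 1, where Ptgs2 was also higher, and -0.00 without AD replicates 1 and 2, with 12 of 25 above 0. Among 26 genes of the major histocompatibility complex and antigen presentation the median was 0.01, and none was below an unadjusted p of 0.05; without AD replicates 1 and 2 it was -0.09.

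Antioxidant and ethanol-metabolizing genes centred on 0. Of 25 tested targets of NRF2, the regulator of the oxidative stress response, 2 were higher (8%, beside 1.59% of all genes), Nqo2 and Cat. The median was -0.01, and it was -0.04 without ET replicate 1, where Slc7a11 was higher as well. Cat, the catalase that breaks down hydrogen peroxide and can oxidize ethanol, lay at 83.6 to 92.2 CPM in ET and 69.1 to 81.7 CPM in AD without overlap, a log2 fold change of 0.22 (SE 0.06). The classical targets Nqo1, Hmox1 and Gclc had -0.08, -0.04 and 0.03. The antioxidant response element lay upstream of 3 of 21 of these genes (14.3%), beside 10.1% of all windows. Of 13 tested genes of ethanol and aldehyde metabolism Cat was the only one below an unadjusted p of 0.05, the median was 0.00 with 7 of 13 above 0, and Aldh2, the mitochondrial aldehyde dehydrogenase, had 0.01. The median was -0.04 without ET replicate 1 and -0.02 without AD replicates 1 and 2, where 3 of 13 lay above 0 and Aldh1a1 was lower. The alcohol dehydrogenase Adh1 lay at 0.671 CPM or lower in every library and was not tested.

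Activity-dependent immediate early genes, which neurons transcribe within minutes of firing, were mostly on the lower side. Of 26 tested, 20 lay below 0, 3 were lower at an unadjusted p below 0.05 (11.5%, beside 1.15% of all genes) and 0 were higher. The median was -0.12 and ran from -0.23 to -0.07 when libraries were left out in turn. Nr4a2, an orphan nuclear receptor, was at 26.4, 36.7, 37.5 and 41.3 CPM in ET and at 64.1, 51.4, 67.8, 42.0 and 29.2 CPM in AD (-0.52, SE 0.23). Fosb, a subunit of the AP-1 factor, was at 2.29 to 3.25 CPM in ET and 3.13 to 6.35 CPM in AD (-0.58, SE 0.24), and Sik1, a salt-inducible kinase, at 1.80 to 2.89 and 2.61 to 4.40 CPM (-0.44, SE 0.18). The groups overlapped in all 3. Values varied widely within each group for others: Fos ran from 3.29 to 14.2 CPM in ET and from 3.22 to 12.2 CPM in AD, and Npas4, an activity-dependent transcription factor, from 2.36 to 18.1 and from 2.48 to 14.2 CPM. Without AD replicates 1 and 2 the median of the list was -0.06 and 0 genes were lower. Without ET replicate 1 it was -0.09, with 1 gene lower, Fosb, and 1 higher, Ptgs2, the inducible cyclooxygenase.

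Genes of the circadian clock had a median of -0.06, with 4 of 19 above 0. Dbp, a clock output factor, was the only member below an unadjusted p of 0.05, at 55.0 to 71.9 CPM in ET and 67.0 to 79.6 CPM in AD (-0.21, SE 0.09). Without AD replicates 1 and 2 the clock median was -0.03 and 0 members were below that p. In the retinoic acid pathway, which patterns the embryo and shares retinal as a substrate with Akr1b10, 2 of 18 genes were lower (11.1%, beside 1.15% of all genes). These were the receptors Rara (-0.24, SE 0.09) and Rxra (-0.18, SE 0.07), and the median was -0.07. For Rxra, ET lay at 32.2 to 35.6 CPM and AD at 34.7 to 41.4 CPM, so the groups overlapped. Without AD replicates 1 and 2 the median of the pathway was -0.16, and the lower genes were Rxra and the retinal dehydrogenases Aldh1a1 and Aldh1a3, while Rara was no longer among them. The median was -0.11 without ET replicate 1, with Rara, Rxra and Rxrb lower, and -0.04 without ET replicate 3. The opioid peptides and receptors had a median of -0.11 over 8 genes, with only Oprm1, the mu receptor, above 0, and the glucocorticoid and stress axis list had -0.04 over 22; neither held a gene below an unadjusted p of 0.05. The opioid median ran from -0.15 (without ET replicate 3) to -0.07 (without AD replicate 6), and that of the stress axis list from -0.04 to -0.00 with libraries left out in turn. Leaving out ET replicate 1 brought Pomc and the stress peptide gene Crh below that p as lower and Oprm1 as higher.

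Large housekeeping families had medians near 0, but the ET libraries spread widely in oxidative phosphorylation. Among 77 genes of nuclear-encoded oxidative phosphorylation, which build the respiratory chain, the median was -0.01 and 1 gene was higher, Atp5mg, a subunit of ATP synthase (0.21, SE 0.06, without overlap). The score of this list was 0.22, -0.23, -0.03 and -0.01 in ET replicates 1, 3, 4 and 5, and it ran from -0.10 to 0.09 in AD. ET replicates 1 and 3 thus lay on opposite sides of all AD libraries. Without ET replicate 1 the median was -0.09, 11 of 77 genes lay above 0 and 4 were lower (Ndufb6, Cox8a, Atp5mc1 and Sdhc), and without ET replicate 3 the median was 0.06. The 74 cytosolic ribosomal protein genes had a median of 0.01, with Rpl30, Rpl17 and Rpl23 higher, and the 73 mitochondrial ones of 0.01. The median log2 CPM of the cytosolic list was 3.5, below the 4.4 of all genes tested. The doubt about what the Rpl30 row counts extends to the other rows of that list. Rpl30 was the only cytosolic one still higher without ET replicate 1, and also without AD replicates 1 and 2. The medians without ET replicate 1 were -0.06, with 24 of 74 above 0, and -0.07, with 13 of 73 above 0 and Mrpl38, Mrpl12 and Mrpl21 lower. The proteasome, with 33 of 42 genes above 0, had a median of 0.03 that became -0.02 without ET replicate 1. With libraries left out in turn, the medians reached at most 0.06 (cytosolic ribosomal), 0.07 (mitochondrial ribosomal) and 0.08 (proteasome).

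In the clustered protocadherins, adhesion molecules that give neurons their identity, 0 of 35 tested genes were below an unadjusted p of 0.05 and the median was 0.02. Their score was -0.30 in ET replicate 1 and 0.19 in ET replicate 3, the reverse of the order in oxidative phosphorylation. Without ET replicate 1 their median was 0.11, 29 of 35 lay above 0 and 3 were higher (Pcdhgb7, Pcdhga8 and Pcdhga12), where 2.6% of all genes were higher. The protocadherin median ran from -0.05 to 0.11 when libraries were left out in turn. Over the 54 lists, ET replicate 3 had the highest or lowest score of the 9 libraries in 27 and ET replicate 1 in 25, and the SD of the scores was larger in ET than in AD in 36. The part that the tissue content of these libraries had in their scores was not tested.

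**Figure D5:**
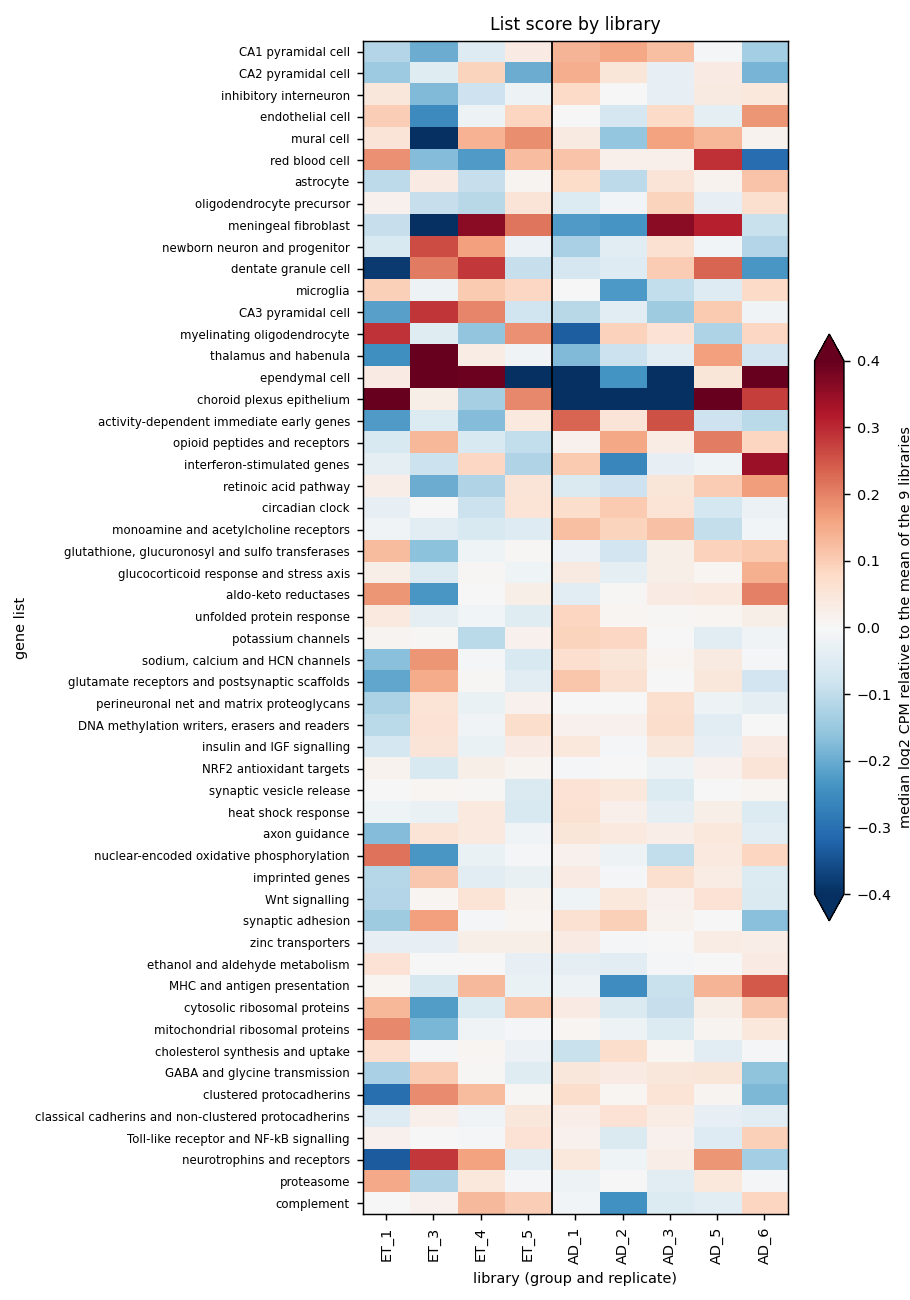
Score of each list in each library, as the median over its tested members of log2 CPM relative to the mean of the 9 libraries, with ET to the left of the black line and AD to the right; colours saturate beyond 0.4 in either direction. Columns of ET replicates 1 and 3 often have opposite colours, and no row separates ET from AD.

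Of the synaptic lists, glutamate receptors and postsynaptic scaffolds (median -0.03, 42 genes) held 1 lower gene, Dlgap3, a scaffold of the postsynaptic density, at 152 to 177 CPM in ET and 152 to 231 CPM in AD (-0.34, SE 0.12). AD replicate 3 was the only AD library within the ET range. The median of this list was 0.00 without ET replicate 1, with 21 of 42 above 0 and Homer3 higher, and -0.10 without ET replicate 3; without AD replicates 1 and 2 it was 0.01 and Dlgap3 was not below an unadjusted p of 0.05. Synaptic adhesion held Cntn5, a contactin, higher without overlap (0.32, SE 0.09), and Lrfn1, a leucine-rich repeat protein of the synapse, lower (-0.23, SE 0.07). The median of synaptic adhesion was -0.00, and 0.07 without AD replicates 1 and 2, where Lrfn1 was not below that p. Among 79 potassium channel genes 1 was higher, Kcnip4, and the median was -0.03. Without ET replicate 1 the median was -0.06, 0 were higher and 6 were lower, where 2.34% of all genes were lower. Without AD replicates 1 and 2 the potassium channel median was 0.00, with 41 of 79 above 0, 2 higher and 1 lower. GABA and glycine transmission, with 26 genes, a median of 0.01 and 0 called, and axon guidance, with 66 genes, a median of -0.01 and 0 called, differed as little. These medians were 0.04, with Slc32a1 lower, and 0.05, with Sema3c higher, without ET replicate 1. Without AD replicates 1 and 2 that of GABA and glycine transmission was 0.06, with 19 of 26 above 0, and without AD replicate 6 it was -0.03.

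Cell types of the hippocampus were compared through marker lists, and no marker of any list was at 0 in all 9 libraries. Microglia, the resident macrophages of the brain, had 15 of 18 markers above 0 and a median of 0.10, which stayed between 0.06 and 0.15 when libraries were left out in turn. In this list 3 markers were higher at an unadjusted p below 0.05 (16.7%, beside 1.59% of all genes) and 0 lower. Gpr34, a lysophosphatidylserine receptor, was at 21.0, 24.5, 22.8 and 20.5 CPM in ET and at 19.3, 16.1, 18.5, 19.6 and 16.6 CPM in AD (0.30, SE 0.08), without overlap. P2ry12, the receptor with which microglia sense ATP and ADP, was at 33.2 to 38.5 CPM in ET and 27.6 to 36.1 CPM in AD (0.19, SE 0.08), and Laptm5, a lysosomal membrane protein, had 0.16 (SE 0.07), both with overlap. In the pair-fed libraries Gpr34 lay at 19.6 to 25.7 CPM, across the ET range, P2ry12 at 19.6 to 33.6 CPM and Laptm5 at 21.3 to 25.9 CPM. Gpr34 was the only marker below that p without ET replicate 1, where 2.6% of all genes were higher, and also without AD replicates 1 and 2. Some markers lay near 0: Cx3cr1, the fractalkine receptor, had -0.04, Cd68 had -0.03 and Tmem119 had 0.01. The summed level of the 18 markers was 604 to 621 CPM in ET and 504 to 636 CPM in AD, so the groups overlapped, with AD replicate 1 within the ET range and AD replicate 6 above it.

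Myelin genes of mature oligodendrocytes all lay above 0, 17 of 17, but 0 were below an unadjusted p of 0.05. Their median was 0.11 and stayed between 0.06 and 0.16 when libraries were left out in turn. Mbp, myelin basic protein, was at 10820, 8286, 7948 and 10120 CPM in ET and at 7108, 9407, 8983, 8593 and 10700 CPM in AD, a log2 fold change of 0.05. AD replicate 1 had the lowest score, -0.33, and ET replicate 1 the highest, 0.29, while ET replicate 4 at -0.16 lay below 4 of the 5 AD libraries. The 17 genes were measured in the same 9 libraries and are not 17 separate observations.

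Astrocyte markers had a median of -0.03, with 4 of 15 above 0 and 2 lower (13.3%, beside 1.15% of all genes). These were Fgfr3, a growth factor receptor, without overlap (-0.19, SE 0.06), and Aldh1l1, a folate enzyme (-0.14, SE 0.06). Without ET replicate 1, 7 of 15 lay above 0, and Fgfr3 was the only lower marker there and without AD replicates 1 and 2; the median was -0.00 without ET replicate 4. Gfap, the intermediate filament of astrocytes, had 0.18, and the glutamate transporters Slc1a2 and Slc1a3 had -0.00 and 0.02. Markers of interneurons had a median of -0.05, with 3 of 18 above 0. Calb2, calretinin, was the only one below an unadjusted p of 0.05 and lay on the higher side, at 15.1 to 19.8 CPM in ET and 10.8 to 16.8 CPM in AD (0.33, SE 0.13). Without ET replicate 1 the interneuron median was -0.13 and 3 markers were lower, Vip, Pvalb and Slc32a1, and without AD replicates 1 and 2 Calb2 was not below that p. The interneuron median ran from -0.13 to -0.01 when libraries were left out in turn.

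Markers of the pyramidal fields had small medians. All 7 tested CA1 markers lay below 0, with a median of -0.13 and 0 below an unadjusted p of 0.05, and Wfs1, the wolframin gene that marks CA1, was at 214, 293, 344 and 335 CPM in ET and 375, 345, 385, 304 and 241 CPM in AD. The CA1 median was -0.22 without ET replicate 4, -0.10 without AD replicate 2 and -0.06 without AD replicates 1 and 2, and Mpped1 was lower without ET replicate 1. CA2 markers had a median of -0.05, with 2 of 7 above 0, which was -0.16 without ET replicate 3 and -0.03 without ET replicate 1. CA3 markers had a median of 0.10 with 4 of 6 above 0, and dentate granule cell markers one of 0.06 with 4 of 8 above 0; neither list held a gene below an unadjusted p of 0.05. The CA3 median was 0.01 without ET replicate 3 and 0.18 without ET replicate 1, and that of the dentate was -0.07 and 0.14 in these fits. ET replicate 1 had the lowest dentate score of the 9 libraries, -0.38, and the lowest CA3 score, -0.22. Lists of endothelial and mural cells had medians of -0.04 and -0.04, that of newborn neurons and progenitors had 0.06, and all 3 held 0 genes below an unadjusted p of 0.05. Without ET replicate 1 that of newborn neurons was 0.18, with Mki67 and Draxin higher. The newborn neuron median ran from -0.04 to 0.18 when libraries were left out in turn. The endothelial median was -0.10 without AD replicates 1 and 2, with 0 of 16 above 0, and 0.05 without ET replicate 3. The mural one was -0.18 and 0.09 in these fits.

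The largest median of the 54 lists was that of the choroid plexus, 1.11, and it turned on ET replicate 1. Of 11 tested markers 5 were higher at an unadjusted p below 0.05 (45.5%), Ttr, Cldn2, Kl, Folr1 and Enpp2. Ttr was at 1024, 47.8, 57.9 and 141 CPM in ET and at 2.71, 26.4, 13.7, 131 and 68.7 CPM in AD (2.72, SE 1.10). Without ET replicate 1 the median was 0.30 and 0 markers were below an unadjusted p of 0.05. Ependymal markers had a median of 0.56 with 7 of 8 above 0, and those of thalamus and habenula one of 0.17 with 8 of 11 above 0; neither held a gene below an unadjusted p of 0.05, and ET replicate 3 was highest in both. Without ET replicate 3 these medians were 0.23 and 0.02, and without AD replicates 1 and 2 the ependymal one was 0.33. Leaving out ET replicate 1 gave a thalamic median of 0.27, with Tcf7l2 and Synpo2 higher and Chrna3 lower. Shox2, a thalamic transcription factor, was at 0.150, 7.41, 1.93 and 0.578 CPM in ET and at 0.0713 to 2.81 CPM in AD. The part of bordering tissue in the other differences was not tested.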

How the data were processed

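Hippocampal RNA was sequenced in paired-end libraries, each run as 3 technical replicates. Per the paper's methods and the submitters' processing notes, the authors trimmed reads with fastp, aligned them to mRatBN7.2 with Bowtie2 version 2.4.2, counted fragments per gene with featureCounts version 2.0.1 at a mapping quality of 10 or more, letting a read count for several features, and deposited expected counts averaged over the 3 technical replicates. The strand setting and annotation release are not given in the sources used here. Samples were grouped by their labels. These averaged counts were rounded, filtered with filterByExpr, scaled by TMM and tested with edgeR 4.0.16 (glmQLFit, glmQLFTest; Benjamini-Hochberg over 15749 genes, 7 residual degrees of freedom, no covariate). The fitting code was tested on simulated counts with known fold changes. CPM values use TMM factors over the 9 libraries (over 17 for pair-fed values). DESeq2 1.42.0, limma 3.58.1 on log2 CPM (prior count 2), other scalings, filters, samples and covariates were alternatives. Replicate numbers did not pair the samples. No 2 libraries of a group agreed within sampling noise (smallest chi-square per gene 8.64). Promoters and gene order come from RefSeq GRCr8, matched by symbol for 28858 genes (84.1%); no coordinate was converted. Named genes are those past the threshold, the 10 with the smallest p in each direction with a gene name, and list members by smallest p or at an unadjusted p below 0.05; any other gene named, such as Tph1, Prox1, Mbp, Wfs1 or those named for a fit without some libraries, was chosen after its values were seen. The members and gene lists were chosen with earlier results of these data known. A floor of 3 averaged counts corresponds to 0.171 to 0.263 CPM per library, for counting error only. As the counts are averages over 3 technical replicates, this floor is higher than an averaged count of 0 requires. Entries for 13 mitochondrially encoded genes matched no row and were not analysed here. Some results are not reported here.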

Additional observations from a re-analysis of the deposited data

Results flagged for a closer look

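Single libraries far from the others of their group (a gap to the nearest library above Dixon's critical value for 95%) were found in 14 of 148 groups of values; chance alone flags about 1 in 20 groups. Among list scores in ET, ET replicate 1 stood at 2.02 for choroid plexus, against -0.13 to 0.19 in the other 3. ET replicate 3 stood at -0.0623 for NRF2 targets and at 0.134 for opioid peptides and receptors. ET replicate 5 stood at -0.0568 for synaptic vesicle release, and ET replicate 4 at -0.106 for potassium channels. In AD, replicate 6, the library with pineal transcripts, stood at -0.162 for GABA and glycine transmission, at -0.179 for clustered protocadherins and at -0.0441 for axon guidance, and replicate 1 stood at 0.0868 for the unfolded protein response. Among genes, AD replicate 6 held 2.17 CPM of Trim30 against 1.40 to 1.45 in the other 4. AD replicate 2 held 1.10 CPM of Tex52, and ET replicate 5 held 10 CPM of Podn. AD replicate 3, the right hippocampus, held 13.8 CPM of Zfp61 and 136 CPM of Zfp180, both within the ET range.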

How the results depend on the processing

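Akr1b10 and Mx2 stayed past the threshold as lower in ET in every fit but the 2 on 6 libraries described next, including each fit that left out 1 library. The replicate numbers of ET and AD did not pair the samples: same-numbered libraries (3 pairs) had correlations of deviations from -0.25 to 0.16. With the replicate block on those 6 libraries the count of genes past the threshold was 0 lower and 0 higher (adjusted p by edgeR 0.071 for Akr1b10 and 0.051 for Mx2), with 254 higher and 170 lower at an unadjusted p below 0.05; the same 6 libraries without the block, a fit chosen after seeing the data, gave 2 lower, Mx2 and RT1-N2, with an adjusted p of 0.012 for Akr1b10. The count of higher genes past the threshold ranged from 0 to 1 when libraries were left out in turn, the 1 being Ifit1 without ET replicate 1, which passed the count filter only through the ET libraries where it is high, and that of lower genes was 2 throughout. At an unadjusted p below 0.05, leaving out libraries in turn gave 159 to 413 higher and 127 to 371 lower genes, the highest without ET replicate 1 and the lowest without AD replicate 1. Without AD replicates 1 and 2 there were 90 higher and 114 lower, of which 67 and 54 were shared with all 9 libraries. Without genes that overlap another there were 163 and 114, 371 higher and 277 lower without a filter on low counts, 322 and 280 from sums of technical replicates, and 368 and 350 with all 11 libraries. Of the medians of lists under alternatives, 1190 stayed within the spread between libraries, 20 moved by more than it; the causes were not tested. Depth limits the genes near the floor of 0.171 to 0.263 CPM, such as Ifit1 in AD and LOC103691053 in ET.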
